A study of Mus musculus with 4 samples.

Results

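The genes for the platelet-derived growth factor (PDGF) receptors and ligands were examined in cell lines grown from mouse mammary tumors. These are the 2 receptor genes Pdgfra and Pdgfrb and the 4 ligand genes Pdgfa, Pdgfb, Pdgfc and Pdgfd, and all 6 were found by symbol among the 38713 genes of the expression table. The family was chosen by earlier results on the same libraries, in which the Pdgfra difference between genotypes was already seen. The genotype differences of the 6 genes are therefore a description and were given no test.

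PDGF ligands are secreted dimers that bind receptor tyrosine kinases, which then dimerize, phosphorylate each other and recruit SRC, phosphoinositide 3-kinase, phospholipase C gamma and the GRB2-SOS activators of RAS. The alpha receptor binds the A, B and C chains and the beta receptor binds the B and D chains. PDGF-A and PDGF-B are processed by furin-like proteases before secretion, whereas PDGF-C and PDGF-D are secreted with an inhibitory CUB domain that extracellular proteases remove. In the mammary gland, as in other organs, epithelial cells are known as a source of ligand, and the receptors are known mainly from fibroblasts and from the mural cells of blood vessels.

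RNA was sequenced from 4 lines, each from a separate tumor of the C57BL/6 strain and each giving 1 library. The 2 JNK_WT lines (replicates 1 and 2, genotype p53-/-) came from mice in which Wap-Cre deleted floxed Trp53, the gene for the tumor suppressor p53. The 2 JNK_KO lines (replicates 1 and 3, genotype p53-/- JNK-/-) came from mice in which Wap-Cre also deleted floxed Mapk8 and Mapk9, which encode the stress-activated kinases JNK1 and JNK2. Wap-Cre is switched on by lactation in luminal epithelial cells and Trp53 was its target in all 4 lines. The lines were derived on collagen I and grown on plastic, and no age was given in the labels.

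Expression was given as FPKM, which scales fragments to gene model length and to the mapped total, so that levels can be set side by side between genes. The 4 libraries listed between 12407 and 12875 genes at 1 FPKM or more, and upper quartiles over the 12998 tested genes lay between 33.2 and 34.3 FPKM. Read numbers were not part of the table. The steps of low FPKM values placed the depth of the other libraries at 1.06 to 1.40 times that of JNK_KO replicate 1. Mapk8 was at 23.9 and 19.1 FPKM in the JNK_WT lines and at 4.30 and 4.27 FPKM in the JNK_KO lines, and Mapk9 was at 29.7 and 24.3 against 12.6 and 8.66 FPKM, so both targeted genes were lower in each JNK_KO line and neither was at 0. Trp53 was at 1.55 and 4.15 FPKM in the JNK_WT lines and at 5.72 and 4.28 FPKM in the JNK_KO lines. With 2 lines against 2, the smallest two-sided p that an exact permutation test can give is 0.333.

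The 3 members whose levels ranged over more than 2 on the log2(FPKM + 1) scale among the lines were Pdgfra, Pdgfc and Pdgfd, and the 250 bases before the RefSeq start of each gene are shown to place these genes on the genome (GRCm38.p6, plus strand). They lie at chr5:75152001-75152250 for Pdgfra, chr3:81036166-81036415 for Pdgfc and chr9:6168236-6168485 for Pdgfd. Capitals mark a match on either strand to 1 of 5 motifs.
Pdgfra: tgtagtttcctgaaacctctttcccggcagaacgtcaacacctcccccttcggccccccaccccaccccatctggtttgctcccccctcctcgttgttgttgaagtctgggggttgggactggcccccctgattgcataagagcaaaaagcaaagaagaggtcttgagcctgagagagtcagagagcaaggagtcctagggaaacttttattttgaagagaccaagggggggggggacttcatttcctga
Pdgfc: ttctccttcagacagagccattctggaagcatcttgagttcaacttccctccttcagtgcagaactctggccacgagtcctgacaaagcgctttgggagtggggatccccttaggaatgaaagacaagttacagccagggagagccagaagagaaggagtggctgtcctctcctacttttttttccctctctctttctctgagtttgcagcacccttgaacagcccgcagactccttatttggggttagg
Pdgfd: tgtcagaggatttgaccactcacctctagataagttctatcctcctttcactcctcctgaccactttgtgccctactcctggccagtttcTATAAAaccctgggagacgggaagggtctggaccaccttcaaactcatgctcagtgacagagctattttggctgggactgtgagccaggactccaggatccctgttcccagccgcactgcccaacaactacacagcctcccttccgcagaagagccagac

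The motifs searched were the TATA box TATAAA, the CCAAT box CCAAT, the GC box GGGCGG, the AP1 site TGANTCA and the cyclic AMP response element TGACGTCA. AP1 includes cJUN, a target of JNK. Over 32851 promoter windows of the same length, these letters were found in 12.4%, 33.8%, 32.7%, 6.75% and 1.55% of windows in that order. The Pdgfd window held 1 match, a TATA box from base -160 to base -155 before the start, and the Pdgfra and Pdgfc windows held none, which says only that these letters are not in those 250 bases. Both windows of Pdgfa, which has 2 annotated starts, held GC boxes and no AP1 site. GC content was 54.4% for Pdgfra, 50.8% for Pdgfc and 53.6% for Pdgfd, beside a median of 52.4% over all windows.

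The receptors were low in both JNK_WT lines and present in both JNK_KO lines. In what follows, values are given for JNK_WT lines 1 and 2 and then for JNK_KO lines 1 and 3, in that order. Pdgfra, which encodes the alpha receptor, measured 0.325 and 0.183 FPKM in the JNK_WT lines against 24.7 and 7.82 FPKM in the JNK_KO lines. The lines of the genotypes did not overlap, and the lower JNK_KO line was 24.1 times the higher JNK_WT line. In bulk RNA, more expressing cells in a line and more RNA per cell cannot be told apart. The JNK_WT mean was 0.254 ± 0.1001 FPKM and the JNK_KO mean was 16.3 ± 11.9 FPKM (SD, n = 2 each). On the log2(FPKM + 1) scale used for all differences, which understates changes of genes with low values, the difference of JNK_KO minus JNK_WT was 3.59 (SE 0.59). Each SE came from a linear model fitted to all tested genes (limma), which draws a gene's variance toward that of other genes. It therefore does not measure the spread of these lines alone. The smallest gap between lines of different genotype was 2.73 on this scale, wider than the spread of 1.54 between the JNK_KO lines and of 0.16 between the JNK_WT lines. Among the tested genes of each library, Pdgfra stood at the 67.0 and 34.8 percentiles in the JNK_KO lines and at the 3.49 and 2.54 percentiles in the JNK_WT lines.

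Pdgfrb, which encodes the beta receptor, followed the same order of genotypes at lower levels. It measured 0.0404 and 0.194 FPKM in the JNK_WT lines against 2.17 and 2.99 FPKM in the JNK_KO lines. Again the lines did not overlap, and the lower JNK_KO line was 11.1 times the higher JNK_WT line. Group means were 0.117 ± 0.109 and 2.58 ± 0.583 FPKM (SD, n = 2 each), and the log2 difference was 1.67 (SE 0.32). The JNK_KO lines were in opposite order for the receptors, since replicate 1 had the higher Pdgfra and replicate 3 the higher Pdgfrb. Pdgfra was 11.4 times Pdgfrb in JNK_KO replicate 1 and 2.62 times Pdgfrb in JNK_KO replicate 3. Even where it was highest, Pdgfrb stood at only the 16.5 percentile of the tested genes.

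**Figure D1:**
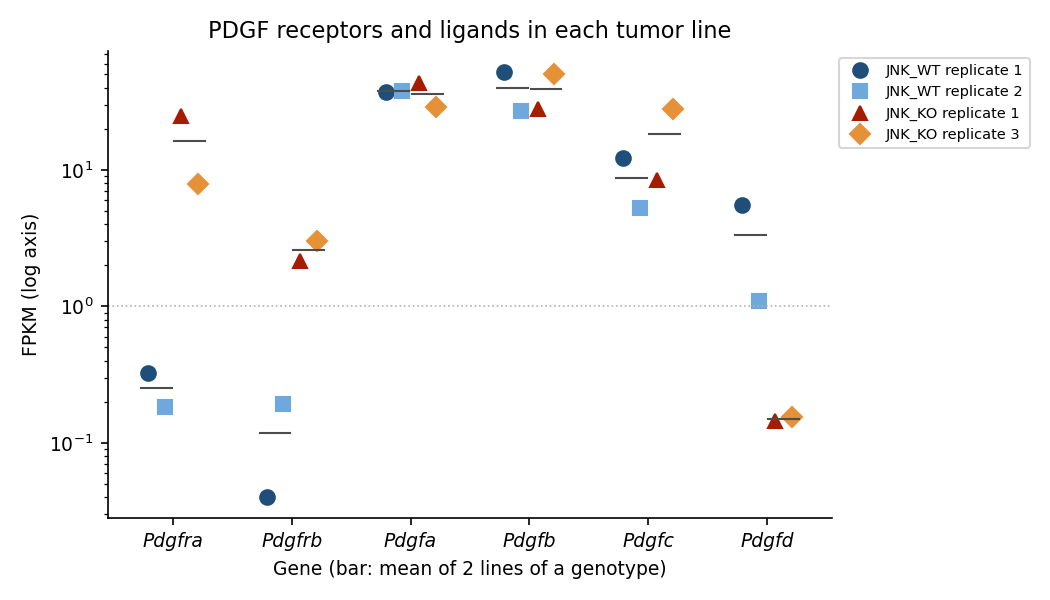
FPKM on a log axis of the 6 PDGF receptor and ligand genes in each of the 4 tumor lines, with a bar at the mean of the 2 lines of a genotype and a dotted line at 1 FPKM. Both receptor genes are under 0.4 FPKM in the JNK_WT lines and over 2 FPKM in the JNK_KO lines, Pdgfd is arranged the other way, and Pdgfa and Pdgfb are at 27.01 FPKM or more in all lines.

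The classical ligands were abundant in every line and did not separate the genotypes. Pdgfa, which encodes the A chain, measured 37.4 and 37.8 FPKM in the JNK_WT lines against 43.3 and 29.1 FPKM in the JNK_KO lines. The JNK_WT lines lay between the JNK_KO lines, and the log2 difference was -0.08 (SE 0.29). Group means were 37.6 ± 0.291 and 36.2 ± 10.04 FPKM (SD, n = 2 each). Pdgfa was the steadiest member, with its highest line at 1.49 times its lowest.

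Pdgfb, which encodes the B chain that both receptors bind, measured 52.03 and 27.01 FPKM in the JNK_WT lines against 27.9 and 50.1 FPKM in the JNK_KO lines. The genotypes overlapped over nearly their whole range, with 1 high and 1 low line in each. The log2 difference was -0.0033 (SE 0.47), with means of 39.5 ± 17.7 and 39.0 ± 15.7 FPKM (SD, n = 2 each). Pdgfa and Pdgfb did not differ in level beyond the spread of the lines, since Pdgfb was the higher in JNK_WT replicate 1 and JNK_KO replicate 3 and Pdgfa in the other lines. Together they made up 73.7% to 91.1% of the summed ligand FPKM of a line.

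The ligands with a CUB domain varied more. Pdgfc, which encodes the C chain and so a ligand of the alpha receptor, measured 12.2 and 5.22 FPKM in the JNK_WT lines against 8.37 and 28.1 FPKM in the JNK_KO lines. JNK_KO replicate 3 stood above the other lines, and JNK_KO replicate 1 lay between the JNK_WT lines. The log2 difference of 0.87 (SE 0.71) was smaller than the spread of 1.09 between the JNK_WT lines and of 1.63 between the JNK_KO lines, and it was 0.05 without JNK_KO replicate 3. Means were 8.70 ± 4.93 and 18.2 ± 13.9 FPKM (SD, n = 2 each).

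Pdgfd, which encodes the D chain and so a ligand of the beta receptor, measured 5.56 and 1.10 FPKM in the JNK_WT lines against 0.144 and 0.154 FPKM in the JNK_KO lines. It was the member with lines apart in the other direction, and the lower JNK_WT line was 7.13 times the higher JNK_KO line. Means were 3.33 ± 3.15 FPKM for JNK_WT and 0.149 ± 0.00667 FPKM for JNK_KO (SD, n = 2 each). The log2 difference was -1.69 (SE 0.62), while the JNK_WT lines were 1.64 apart and the JNK_KO lines 0.01 apart, so its size rested on JNK_WT replicate 1 and was -0.87 without that line.

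**Figure D2:**
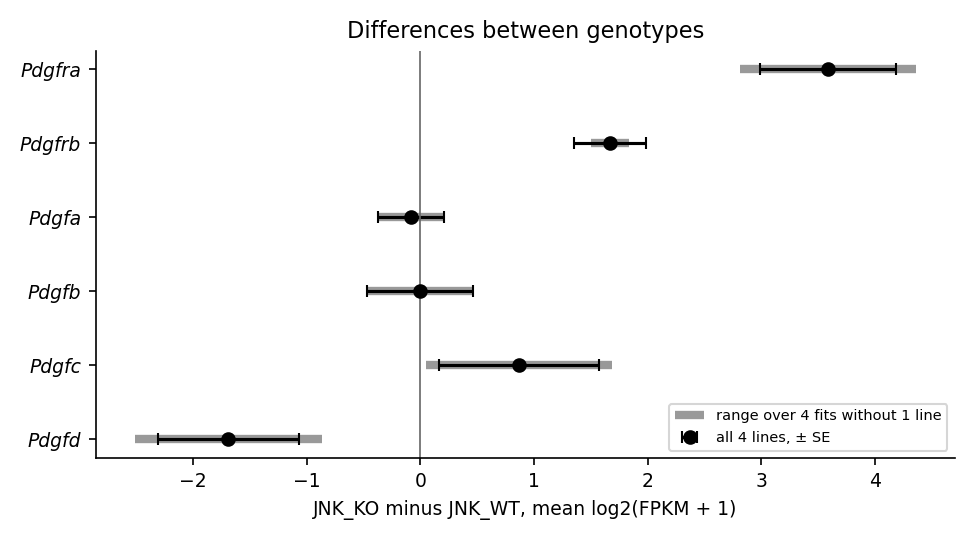
Difference between genotypes, JNK_KO minus JNK_WT, in mean log2(FPKM + 1) for each member, with points and error bars for all 4 lines (± SE of the limma fit) and thick bars for the range over the 4 fits that each left out 1 line. The differences of Pdgfra (3.59) and Pdgfrb (1.67) stay above 0 and that of Pdgfd (-1.69) below 0 in all fits. This must be so for genes whose lines do not overlap. The bars of Pdgfa and Pdgfb span 0, and that of Pdgfc reaches 0.05.

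In all, 3 of the 6 members had lines that did not overlap between genotypes together with a log2 difference over 0.75, of which 2 were higher and 1 was lower in JNK_KO cells. Over all 12998 tested genes this held for 12.1%, with 7.18% higher and 4.96% lower in JNK_KO cells. All 6 members passed the filter of 1 FPKM in 2 libraries, but Pdgfra, Pdgfrb and Pdgfd passed only through the genotype in which they were high. Since these values chose the family, nothing is read from the count.

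Ordered by level, Pdgfa and Pdgfb came first in each line and Pdgfc followed, except in JNK_KO replicate 1, in which Pdgfra came ahead of Pdgfc. Pdgfd followed Pdgfc in the JNK_WT lines and was last in the JNK_KO lines. In the JNK_WT lines the receptors took the last places, and their order changed between the lines. The 4 ligands summed to 107 and 71.1 FPKM in the JNK_WT lines and to 79.7 and 107 FPKM in the JNK_KO lines, with overlapping genotypes. The receptors summed to 0.365 and 0.377 FPKM in the JNK_WT lines and to 26.9 and 10.8 FPKM in the JNK_KO lines. The ratio of the ligand sum to the receptor sum was accordingly 293 and 188 in the JNK_WT lines and 2.97 and 9.94 in the JNK_KO lines. The JNK_WT ratios divide by 0.365 and 0.377 FPKM, values so low that the size of the ratios is uncertain. The same holds for the ratios given above that divide by member values this low.

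Some members share bases with other genes in the GENCODE M21 annotation, and strand was not stated for the libraries. Pdgfa (chromosome 5, 138976014 to 138997370, minus strand) overlaps exons of 6330403L08Rik on the other strand, which was at 2.51 and 2.41 FPKM in the JNK_WT lines and at 5.002 and 2.91 FPKM in the JNK_KO lines. Pdgfc (chromosome 3, 81036416 to 81214040, plus strand) overlaps Gm16000 on the other strand, which was at 1.46 FPKM or less. Pdgfra (chromosome 5, 75152292 to 75198215, plus strand) shares exon bases with 3 genes not analysed here. Pdgfb (chromosome 15, 79995874 to 80014977, minus strand), Pdgfd (chromosome 9, 6168584 to 6378850, plus strand) and Pdgfrb (chromosome 18, 61045150 to 61085061, plus strand) share exon bases with none.

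The neighborhood of Pdgfra was examined because Pdgfra, Kit and Kdr, which encode related receptor tyrosine kinases, lie side by side and can be gained together in tumors. Of 11 neighbors between -1083.9 and 1152.5 kb from the Pdgfra start, 9 were tested. Of these 0 were called by limma and 0 had lines apart with a difference over 0.75. Over all 12998 tested genes limma called 0%, and 12.1% had lines apart with such a difference. The part of a shared gain in the Pdgfra result was not tested. Their median log2 difference was -0.13, beside 0.01 over all tested genes and 3.59 for Pdgfra, and it was 0.19 without JNK_WT replicate 2. Chic2, whose start lies at -107.5 kb, measured 86.4 and 187 FPKM in the JNK_WT lines against 125 and 121 FPKM in the JNK_KO lines. Kit, the stem cell factor receptor at 422.6 kb, measured 0.0292 and 5.52 against 0.403 and 1.42 FPKM. Kdr, the VEGF receptor, was at 0.106 FPKM or less in all lines, and Gsx2, a homeobox gene, was listed at 0 in all lines.

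**Figure D3:**
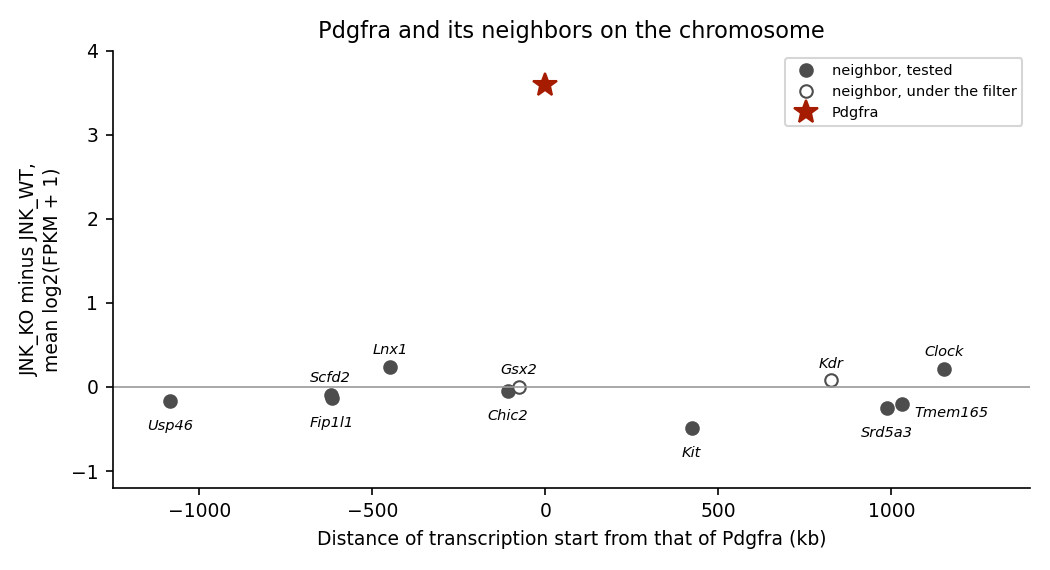
Difference between genotypes in mean log2(FPKM + 1) against the distance in kb from the Pdgfra start, for Pdgfra (star) and 11 neighbors, with filled circles for tested genes and open circles for genes under the filter. The neighbors lie between -0.49 (Kit) and 0.24 (Lnx1) while Pdgfra is at 3.59.

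The other genes of the pathway were examined as lists, and over all tested genes limma called 0% (0 of 12998, with 992 genes, or 7.63%, at an unadjusted p under 0.05). A call required an adjusted p under 0.05 and an absolute log2 difference over 0.75. Among 12 genes for ligand processing and binding, 11 were tested and 0 were called. The lines were apart with a difference over 0.75 for 1 higher and 1 lower gene, beside 7.18% and 4.96% of all tested genes. The list median was -0.04 and ranged from -0.13 to 0.31 when any single line was left out. Plau encodes urokinase, a protease that can activate PDGF-D, and it measured 761 and 52.8 FPKM in the JNK_WT lines against 42.8 and 41.3 FPKM in the JNK_KO lines (log2 difference -2.23, SE 1.29, limma adjusted p = 0.854). JNK_WT replicate 1 alone stood far above the rest for Plau, as it stood highest for Pdgfd. Pdgfrl, which encodes a secreted protein that resembles the receptor's outer part, measured 0.818 and 0.399 FPKM in the JNK_WT lines against 2.87 and 15.3 FPKM in the JNK_KO lines (log2 difference 2.31, SE 0.76, limma adjusted p = 0.571). Pdgfrl passed the filter only through the JNK_KO lines, so nothing is read from its place among the genes apart.

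The remaining processing genes overlapped between genotypes or were under the filter. Furin, which cleaves the A and B chains, was between 14.6 and 33.3 FPKM. Plat, the tissue plasminogen activator that activates PDGF-C, measured 17.8 and 1.43 FPKM in the JNK_WT lines against 7.62 and 2.57 FPKM in the JNK_KO lines. St14, which encodes matriptase, was between 35.1 and 85.8 FPKM.

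Signal transducers were at 3.90 FPKM (Gab1, JNK_KO replicate 1) or more in every line. All 24 were tested and 0 were called. With lines apart and a difference over 0.75, 0 were higher and 1 was lower, beside 7.18% and 4.96% of all tested genes. The list median was -0.05, with -0.19 without JNK_WT replicate 1 and 0.05 without JNK_WT replicate 2. Src, which encodes a kinase that docks on active receptors, was between 37.3 and 76.2 FPKM, and the adaptor gene Grb2 was between 66.3 and 97.7 FPKM, both with overlapping genotypes.

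Of 11 attenuators, all were tested and 0 were called. The list median was -0.29, which became 0.07 without JNK_WT replicate 2. Lines apart with a difference over 0.75 were seen for 0 higher genes and 1 lower gene, beside 7.18% and 4.96% of all tested genes. Spry2, a feedback inhibitor of receptor tyrosine kinase signals, had lines apart and a difference over 0.75, at 20.8 and 29.2 FPKM in the JNK_WT lines against 13.5 and 12.9 FPKM in the JNK_KO lines (log2 difference -0.85, SE 0.29, limma adjusted p = 0.599). Cbl, the ubiquitin ligase that sends active receptors to degradation, measured 9.76 and 6.95 against 6.66 and 6.47 FPKM, with a log2 difference of -0.29.

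**Figure D4:**
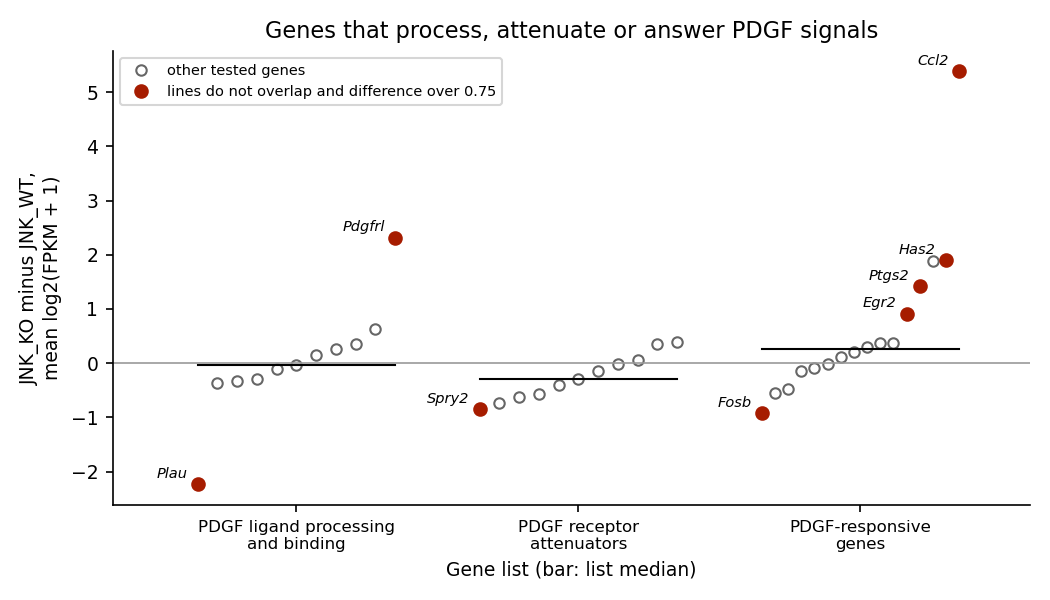
Differences between genotypes, JNK_KO minus JNK_WT, in mean log2(FPKM + 1) for the tested genes of 3 PDGF pathway lists, with 1 circle a gene and a bar at the list median. Filled circles are genes whose lines did not overlap and whose difference was over 0.75. These are 2 of 11, 1 of 11 and 5 of 16 genes from left to right, beside 12.1% of all tested genes. Pdgfrl, Ccl2 and Egr2 passed the filter only with the JNK_KO lines, in which they are high.

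The 16 genes known to respond to PDGF in fibroblasts all also answer to other signals, and 0 were called. They included 4 higher and 1 lower gene with lines apart and a difference over 0.75, beside 7.18% and 4.96% of all tested genes. Of the higher genes, Ccl2 and Egr2 reached 1 FPKM in only 1 JNK_WT line. They passed the filter only with the JNK_KO lines, so nothing is read from the count. The list median was 0.25, which became 1.07 without JNK_WT replicate 2 and -0.14 without JNK_WT replicate 1. Ccl2, a monocyte chemokine first isolated as a PDGF-induced gene, measured 0.249 and 1.12 FPKM in the JNK_WT lines against 177 and 24.8 FPKM in the JNK_KO lines (log2 difference 5.38, SE 1.001, limma adjusted p = 0.295). Has2, which encodes a hyaluronan synthase, measured 6.13 and 1.83 FPKM in the JNK_WT lines and averaged 15.9 ± 2.68 FPKM (SD, n = 2) in the JNK_KO lines, both higher (log2 difference 1.90, SE 0.54, limma adjusted p = 0.485).

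Ptgs2, which encodes the prostaglandin synthase COX-2, measured 30.7 and 23.7 FPKM in the JNK_WT lines against 66.4 and 82.9 FPKM in the JNK_KO lines (log2 difference 1.42, SE 0.27, limma adjusted p = 0.299). Egr2 was higher in both JNK_KO lines and Fosb lower, by log2 differences of 0.91 and -0.93. The immediate early genes Fos, Egr1 and Ier2 had log2 differences of 0.12, -0.55 and -0.09 with overlapping genotypes, and all were higher in JNK_WT replicate 2 than in JNK_WT replicate 1.

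Because the receptors mark stromal cells, markers of the cell types that a tumor culture could hold were measured beside them. Epithelial markers were present in every line. All 13 luminal markers were tested, and their sum was 4136 and 3265 FPKM in the JNK_WT lines and 1375 and 2909 FPKM in the JNK_KO lines. Of the 13, 0 were called. With lines apart and a difference over 0.75, 0 were higher and 2 were lower, beside 7.18% and 4.96% of all tested genes. Epcam, an epithelial adhesion protein and 1 of these 2, measured 360 and 630 against 150 and 286 FPKM. The luminal marker Elf3 measured 12.8 and 7.41 against 14.2 and 19.2 FPKM, higher in both JNK_KO lines. The luminal sum was lowest in JNK_KO replicate 1, the line with the highest Pdgfra, and its part in the Pdgfra result was not tested.

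Of 15 fibroblast markers, 9 were tested and 0 were called, and 4 were higher and 1 was lower in both JNK_KO lines with a difference over 0.75. The shares over all tested genes were 7.18% higher and 4.96% lower. The median over the 9 tested markers was 1.19. Dcn and Fbn1 passed the filter only through the JNK_KO lines. Col5a1 also needed these lines to pass, at 1.17 and 0.187 FPKM in the JNK_WT lines against 6.24 and 3.36 FPKM in the JNK_KO lines. Nothing is therefore read from the count of higher markers. Without a filter on low values the median over the list was 0.57. Dcn, the matrix proteoglycan decorin, measured 0.430 and 0.389 FPKM in the JNK_WT lines against 79.7 and 162 FPKM in the JNK_KO lines (log2 difference 6.35, SE 0.43, limma adjusted p = 0.0554). Col6a1, a collagen VI chain, measured 2.51 and 5.33 against 31.8 and 38.9 FPKM (log2 difference 2.94, SE 0.40, limma adjusted p = 0.191).

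Other fibroblast markers were arranged differently. Twist1, a mesenchymal transcription factor, measured 28.4 and 35.8 FPKM in the JNK_WT lines against 23.9 and 7.73 FPKM in the JNK_KO lines, lower in both JNK_KO lines. Col1a2, a chain of collagen I, measured 10.3 and 0.374 against 0.698 and 2.56 FPKM and was highest in JNK_WT replicate 1. Postn, the matrix protein periostin, measured 1.32 and 2.58 against 0.728 and 25.6 FPKM and was high in JNK_KO replicate 3 alone.

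Some defining fibroblast markers were low in all lines. Col1a1, the main chain of collagen I, was at 0.527 FPKM or less, Fap was at 0.237 FPKM or less, Lum was at 0.00840 FPKM or less and Dpt was listed at 0. Thy1 measured 0.0861 and 0.0722 FPKM in the JNK_WT lines against 0.540 and 1.19 FPKM in the JNK_KO lines and was under the filter. The summed fibroblast list was 381 and 93.3 FPKM for JNK_WT and 651 and 404 FPKM for JNK_KO. Vim, the intermediate filament vimentin, supplied 331 and 47.2 against 500 and 159 FPKM of it. The part of these genes in the receptor result was not tested.

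Markers of mural cells, the other cells known for Pdgfrb, were mixed. Of 10 markers 4 were tested and 0 were called. Lines apart with a difference over 0.75 were seen for 0 higher genes and 1 lower gene, beside 7.18% and 4.96% of all tested genes. Cspg4, Des, Rgs5, Kcnj8, Abcc9 and Myh11 were under 1 FPKM in all lines, and the sum of 10 markers was 14.7 and 21.7 FPKM for JNK_WT and 5.75 and 38.4 FPKM for JNK_KO. Mcam measured 5.40 and 4.56 against 1.10 and 1.39 FPKM, lower in both JNK_KO lines. Acta2, the smooth muscle actin, measured 7.36 and 3.19 FPKM in the JNK_WT lines against 1.70 and 28.97 FPKM in the JNK_KO lines, highest in JNK_KO replicate 3, the line with the highest Pdgfrb. Notch3, a receptor of mural cells, measured 0.366 and 12.5 against 1.64 and 5.30 FPKM, highest in JNK_WT replicate 2. The part of the mural markers in the Pdgfrb result was not tested. Of the leukocyte markers 9 of 10 and of the endothelial markers 6 of 7 were under 1 FPKM in all lines, with Ptprc at 0.0134 FPKM or less. Of 7 adipocyte markers 4 were under 1 FPKM in all lines. The basal markers summed to 116 and 819 FPKM for JNK_WT and to 145 and 404 FPKM for JNK_KO, with overlapping genotypes. Itga6 supplied 89.4 and 74.9 against 105 and 56.1 FPKM of these sums. The basal keratin gene Krt14 measured 7.34 and 443 against 26.7 and 313 FPKM, and Krt5 measured 0.0316 and 61.9 against 0.110 and 0.205 FPKM.

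**Figure D5:**
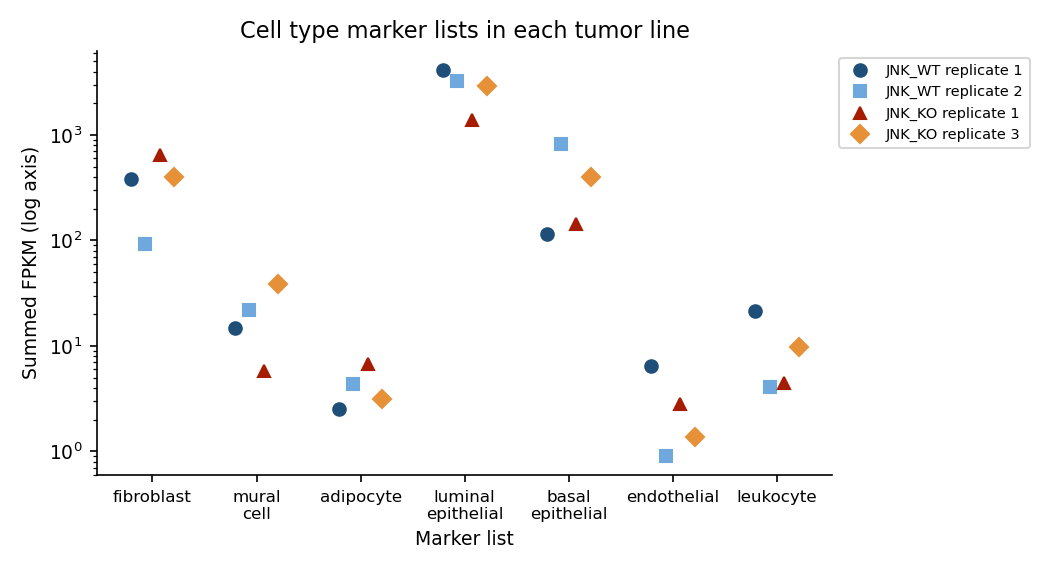
Summed FPKM on a log axis of 7 cell type marker lists in each of the 4 tumor lines. The luminal list is the highest in each line (1375 to 4136 FPKM), the fibroblast sum is 93.3 to 651 FPKM, and the mural, adipocyte, endothelial and leukocyte sums are at 38.4 FPKM or less.

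The genes whose profile over the 4 libraries was most like that of a member were named by the smallest Euclidean distance between profiles of log2(FPKM + 1) after each gene's mean was subtracted. For Pdgfra these were Iigp1 (distance 0.34), Slc7a2 (0.35), Rarres1 (0.50), Ifi203 (0.53) and Gbp3 (0.54). Iigp1, an interferon-inducible GTPase, measured 0.492 and 0.162 FPKM in the JNK_WT lines against 20.9 and 9.02 FPKM in the JNK_KO lines. Slc7a2, a carrier of cationic amino acids, measured 0.554 and 0.429 against 37.03 and 12.7 FPKM. Over 4 libraries such likeness is only a description, and 3 of these 5 genes were kept at a pseudocount of 0.5 and 2 at 0.1.

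For Pdgfc the nearest were SNORA21 (0.28), Klra13-ps (0.35), Vwa5a (0.35), Il4i1 (0.36) and Gramd2 (0.41), which shared the high value in JNK_KO replicate 3. For Pdgfd they were Ptpn6 (0.20), Ppfibp1 (0.28), Sgip1 (0.29), Gm14541 (0.36) and Plekho1 (0.36). Ptpn6, a protein tyrosine phosphatase, measured 155 and 42.6 FPKM in the JNK_WT lines against 27.7 and 26.7 FPKM in the JNK_KO lines, highest like Pdgfd in JNK_WT replicate 1. Of these 5, 0 were kept at a pseudocount of 0.1, 1 at 0.5 and 1 after quantile normalization.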

How the data were processed

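Total RNA from 4 tumor cell lines was made into TruSeq libraries and read as short single-end reads. Per the labels and the study's methods, the authors trimmed reads with Trimmomatic and aligned them to mm10 (GRCm38) with Bowtie2 and TopHat2 2.0.14. They estimated expression with Cufflinks 2.2.1 and compared groups with Cuffdiff. The methods place the sampling of reads with seqtk in a comparison of 4 biological groups, which included both genotypes used here. The deposited values are FPKM per gene and library, unpooled, with the annotation not given in the sources used here. Cufflinks divides by transcript length and shares ambiguous reads between overlapping genes by estimation. FPKM are not counts, so no count model or counting interval was used, and the lines of a genotype are separate tumors.

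Of 38741 rows, 27 with symbols turned into dates and 1 without a value were left out. The 12998 genes with at least 1 FPKM in at least 2 of the 4 libraries were fitted on log2(FPKM + 1) with limma 3.58.1 (intensity trend, two-sided, Benjamini-Hochberg over all genes tested) in R 4.3.3, after a check of the script on simulated data. Relative depth was read from the most common ratio between libraries of values under 0.3 FPKM. Positions came from GENCODE M21 and promoter windows from RefSeq (GRCm38.p6), in which 4 of the 6 members were matched. Figures were drawn with matplotlib 3.10.9.

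The members and the 13 lists were chosen with earlier results of these data known. Named were the 6 members, at most 4 genes of a list (lines apart with the largest differences, else the most abundant) and the 5 nearest profiles of members that ranged over more than 2 on the log2 scale. Further list genes named for their role, in the ligand processing, transducer, attenuator, response, neighbor and marker lists, were chosen after their values were seen. The values of 1 gene are not reported here.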

Additional observations from a re-analysis of the deposited data

How the results depend on the processing

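No paired analysis was possible because the genotypes have only the number 1 in common, and nothing in the labels gives it a shared origin. The count of genes called by limma, 0, was 10 and 14 when 0.1 and 0.5 were added before the logarithm. It was 14 when limma had no intensity trend and 25 when adjusted p up to 0.1 was accepted. The only list gene among the genes called was Dcn, under all of these settings but the fit without the trend. Dcn passed the filter only through the JNK_KO lines, so nothing is read from its calls. The count of genes with lines apart and a difference over 0.75, 1578, ranged from 2097 to 2955 when any single replicate was left out, where such gaps arise more easily by construction.

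The 3 members with lines apart became 4 without JNK_WT replicate 1 or JNK_KO replicate 1, when Pdgfc joined them. With a filter at a mean of 5 FPKM, 4 members were tested and Pdgfra alone was apart (1 member). The directions of Pdgfra, Pdgfrb, Pdgfc and Pdgfd held under every setting in which each was tested. For Pdgfra, Pdgfrb and Pdgfd, whose lines did not overlap, this was fixed in advance for most settings. Leaving out a line or changing the pseudocount or filter cannot reverse such a direction. Differences ranged from 3.30 to 5.34 for Pdgfra, from 1.33 to 3.70 for Pdgfrb and from -3.38 to -1.69 for Pdgfd over the pseudocounts, filters and scalings, where the farthest values came with a pseudocount of 0.1. Without 1 replicate they ranged from 2.82 to 4.36, from 1.51 to 1.84 and from -2.51 to -0.87. Pdgfa and Pdgfb changed sign in 1 and 2 of the fits without 1 replicate.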

Other observations

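Genes for receptors related to those of PDGF, for ligands of such receptors and for a co-receptor were measured as well. Of 16 such genes 12 were tested and 0 were called by limma, 2 were higher and 1 was lower in both JNK_KO lines with a difference over 0.75 (12.1% of all tested genes, 7.18% higher and 4.96% lower). The list median was 0.28, and it was 0.12 without JNK_KO replicate 1. Pgf, the placental growth factor, measured 22.6 and 6.46 FPKM in the JNK_WT lines against 2.06 and 1.99 FPKM in the JNK_KO lines (log2 difference -2.13, SE 0.63, limma adjusted p = 0.506), highest like Pdgfd in JNK_WT replicate 1. Vegfc, a ligand for lymphatic vessel growth, measured 18.01 and 8.25 FPKM in the JNK_WT lines against 35.8 and 21.8 FPKM in the JNK_KO lines (log2 difference 1.13, SE 0.48, limma adjusted p = 0.716). Nrp2, a co-receptor for VEGF-C, measured 24.9 and 23.8 against 52.2 and 43.4 FPKM (log2 difference 0.94, SE 0.24, limma adjusted p = 0.449). Vegfa, the main angiogenic ligand, was between 48.3 and 191 FPKM and its genotypes overlapped. Csf1, which encodes the ligand of a receptor close to those of PDGF, was between 48.3 and 182 FPKM, while that receptor's own gene Csf1r was at 1.82 FPKM or less in all lines.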
